A study of Mus musculus with 2 samples.

Results

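The genes described are the peptide hormone gene Adm, its receptor gene Calcrl and the receptor-modifying genes Ramp1, Ramp2 and Ramp3. They are all 5 members of the set, taken by symbol from 22401 measured features, and all 5 were found. The data are single-cell UMI counts (unique molecular identifiers, each marking 1 captured transcript) from whole mouse hearts at embryonic stage E11.5, in 2 libraries. The control library came from embryos labelled Hand2fx/+R26RmTmG/wt, with 1 floxed Hand2 allele and no Cre. The H2CKO library came from embryos labelled Nfatc1Cre/wtHand2fx/fxR26RmTmG/wt, in which both Hand2 alleles are floxed and Cre is driven from Nfatc1, a gene of the endocardium. Both genotypes carry 1 copy of the mTmG reporter, which makes membrane Tomato until Cre acts and membrane GFP afterwards. Hand2 is a transcription factor, and the comparison asks which transcripts differ when it is deleted in the endocardium and its descendants. The labels do not give the number or sex of the embryos. Because each genotype has 1 library, differences between genotypes compare those libraries alone, without replicates, and no p-value was computed.

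Adrenomedullin is a secreted peptide that relaxes vessels and keeps endothelial junctions tight. Its receptor is a complex: CALCRL, a G-protein-coupled receptor, reaches the cell surface with a single-pass RAMP protein, and the RAMP sets which peptide it binds. CALCRL with RAMP2 or RAMP3 is an adrenomedullin receptor, and CALCRL with RAMP1 is the receptor for calcitonin gene-related peptide. Mice lacking Adm, Calcrl or Ramp2 are known to die at mid-gestation with oedema and defects of vessels and heart. The receptor signals mainly through Gs and cyclic AMP, and Adm is a textbook target of hypoxia.

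The gene models lie on GRCm38, the build named in the submitters' processing notes, and positions are from GENCODE vM21. Adm (ENSMUSG00000030790) is at chr7:110627661-110629820 on the plus strand, and an antisense gene, Gm28863, overlaps it. Calcrl (ENSMUSG00000059588) spans 94786 bases at chr2:84330626-84425411 on the minus strand, with no overlapping gene. Ramp1 (ENSMUSG00000034353) is at chr1:91179822-91225196 on the plus strand, also without an overlapping gene. Ramp2 (ENSMUSG00000001240) is at chr11:101246028-101259546 on the plus strand and overlaps Vps25 on the same strand. RefSeq gives Ramp2 a span of 1917 bases, and how reads in the shared part were counted is not given in the sources used here. Ramp3 (ENSMUSG00000041046) is at chr11:6658521-6677475 on the plus strand, and a pseudogene on the other strand, Gm11978, overlaps it. Whether the counting used strand is not given in the sources used here, so counts of Adm and Ramp3 are uncertain where these genes overlap.

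Promoter sequence is shown for the ligand gene Adm and for Ramp1, whose RefSeq start lies at or just before the start of the gene model above. The 250 bases before the start were found in the RefSeq table (GRCm38.p6) for 4 of the 5 genes. For Calcrl and Ramp3 the table's start lies inside the gene model, so their windows partly cover the gene and are not printed. Both strands were searched for the E-box CANNTG, to which Hand2-type factors bind, the hypoxia element core ACGTG or GCGTG, and the ETS core GGAA, common at endothelial genes. Capitals mark hypoxia cores in Adm (chr7:110627407-110627656, plus strand) and the E-box in Ramp1 (chr1:91179572-91179821, plus strand).
Adm: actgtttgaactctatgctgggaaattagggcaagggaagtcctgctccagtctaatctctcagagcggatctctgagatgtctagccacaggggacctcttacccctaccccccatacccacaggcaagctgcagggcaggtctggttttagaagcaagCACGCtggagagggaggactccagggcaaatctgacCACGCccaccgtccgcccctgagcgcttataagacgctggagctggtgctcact
Ramp1: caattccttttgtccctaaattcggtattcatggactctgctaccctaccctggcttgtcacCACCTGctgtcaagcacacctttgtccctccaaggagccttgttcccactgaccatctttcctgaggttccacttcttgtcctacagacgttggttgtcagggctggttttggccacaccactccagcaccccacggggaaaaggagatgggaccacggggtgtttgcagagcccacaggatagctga
Adm held 2 hypoxia cores, 90 and 54 bases before the start and both on the minus strand, so they read CACGC in the line above. Ramp3 also held 2 hypoxia cores, and Calcrl and Ramp1 held none. Ramp1 and Ramp3 each held 1 E-box, read CACCTG in both, and Adm and Calcrl held none. ETS cores numbered 5 in Ramp1, 5 in Ramp3, 3 in Calcrl and 2 in Adm, so their number did not follow the level in endothelial-like cells. Of 32851 promoters of the same length, 66.2% held an E-box, 38.6% a hypoxia core and 93.4% an ETS core, so a match is common and is a description only.

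Filters left 8793 cells in the control library and 11534 in the H2CKO library, and the median cell held 16223 and 13430 UMIs. Clusters made without the 5 genes were named from marker lists, and names end in "-like" because they rest on markers. Endothelial-like cells numbered 374 in the control and 747 in H2CKO, and all 12 endothelial markers were present in at least 10% of them in both libraries. The other classes were mesenchymal-, cardiomyocyte-, epicardial-, erythroid- and white-blood-cell-like, and 1 unnamed cluster was led by Rspo3, Isl1 and Bmp4. The cardiomyocyte list scored highest in that cluster, with all 12 markers in at least 10% of its cells. It stayed unnamed because its leading genes held a marker of another list and none of that one. Hand2 in endothelial-like cells was 231 CPM (UMIs of a gene per 1000000 UMIs of the class) in the control and 11.3 CPM in H2CKO, and in mesenchymal-like cells 180 and 46.9 CPM. GFP was 16.0 and 1191 CPM in endothelial-like cells, so the labels and the transcripts point the same way. The libraries shared 28 barcodes among kept cells. Erythroid-like cells served as the level of free RNA, and their clusters separated by library.

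Calcrl and Ramp2 were highest in endothelial-like cells of both libraries. Control endothelial-like cells held 1148 Calcrl UMIs, or 186 CPM (95% Poisson interval 175 to 197), and those of H2CKO held 968, or 103 CPM (96.2 to 109). Ramp2, whose protein makes CALCRL an adrenomedullin receptor, was 1158 CPM (1131 to 1185) and 1007 CPM (987 to 1028) in the same cells. Ramp2 had a UMI in 98.7% and 98.8% of endothelial-like cells, against 5.23% and 2.11% of erythroid-like cells at higher median depths (18308 and 13226 UMIs against 12769 and 10257). The median erythroid-like cell held fewer genes, 1804 and 1236.5 against 3810.5 and 2970. Its higher UMI depth thus does not mean that more genes were seen. The share of endothelial-like cells with a Calcrl UMI was 80.2% for the control and 59.2% for H2CKO, against 0.662% and 0.342% of erythroid-like cells. The intervals cover counting error only, as do all others here.

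Mesenchymal-like cells came second for both genes. Their Calcrl levels in control and H2CKO were 24.6 CPM (22.6 to 26.8) and 17.0 CPM (14.7 to 19.6), 7.54-fold (6.81 to 8.36) and 6.03-fold (5.16 to 7.07) below endothelial-like cells. Ramp2 was 222 CPM (215 to 228) and 140 CPM (134 to 148), 5.23-fold (5.04 to 5.42) and 7.17-fold (6.80 to 7.57) below. The 12 endothelial markers summed to 127 and 128 CPM in mesenchymal-like cells and to 3032 and 3231 CPM in endothelial-like cells, and 1 marker was at 0 in the control mesenchymal-like cells. Calcrl in white-blood-cell-like cells, 21.9 CPM (14.6 to 31.7) and 11.9 CPM (7.28 to 18.4), had intervals that overlapped the mesenchymal ones. Of its 20 UMIs in H2CKO, 14 were in 19 cells with UMIs of at least 3 endothelial markers, and the other 84 cells had 4.67 CPM (1.71 to 10.2). Epicardial-like cells had 7.93 and 7.89 CPM of Calcrl. Cardiomyocyte-like cells had 0.637 and 0.438 CPM, near the 0.354 and 0.249 CPM of erythroid-like cells. The plot of levels by cell class shows this order for each gene.

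**Figure D1:**
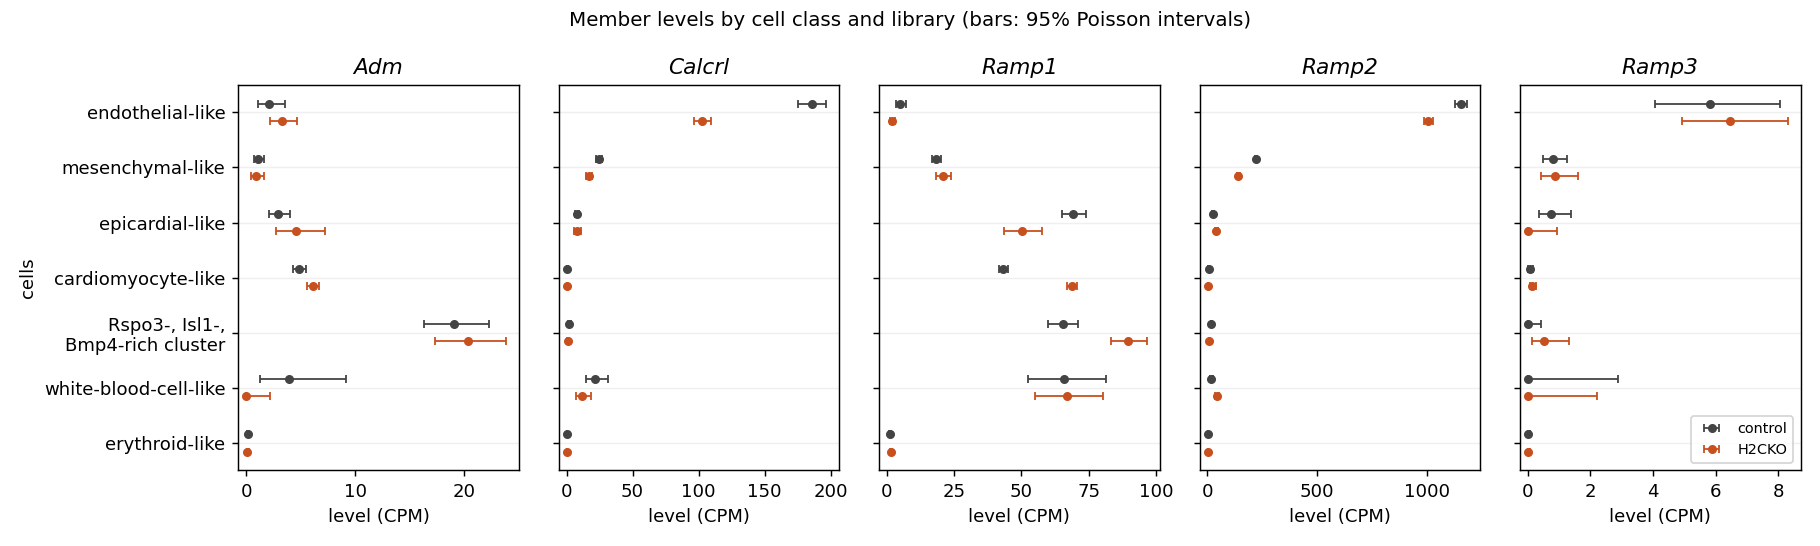
Level of each of the 5 genes (CPM, horizontal axes, a separate scale for each gene) in 7 kinds of cells (vertical axis) for the control (grey) and H2CKO (orange) libraries; points are levels of summed UMIs and bars are 95% Poisson intervals. Calcrl, Ramp2 and Ramp3 are highest in endothelial-like cells, and Adm in the Rspo3-, Isl1- and Bmp4-rich cluster, at 19.1 and 20.4 CPM.

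Ramp3, which encodes the other adrenomedullin-receptor RAMP, followed Calcrl and Ramp2 at a far lower count. It had 36 UMIs in control and 61 UMIs in H2CKO endothelial-like cells, or 5.82 CPM (4.08 to 8.06) and 6.46 CPM (4.94 to 8.30). These UMIs lay in 29 and 47 cells, with at most 3 in a cell. No other class reached 1 CPM. No UMI was seen in 2717 control erythroid-like cells, which at 3 counts allows a share of up to 0.110% of cells with a UMI, or in 4974 H2CKO erythroid-like cells, which allows up to 0.0603%.

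Ramp1, the RAMP of the calcitonin gene-related peptide receptor, was low where Calcrl and Ramp2 were highest. It was 4.85 CPM (3.27 to 6.93) and 2.01 CPM (1.21 to 3.14) in endothelial-like cells, below every other class but erythroid-like cells (1.22 and 1.46 CPM). In the control it was 69.3 CPM (64.9 to 73.9) in epicardial-like cells, 65.7 CPM (52.4 to 81.4) in white-blood-cell-like cells and 65.3 CPM (60.0 to 70.9) in the Rspo3-, Isl1- and Bmp4-rich cluster, and these did not differ beyond their intervals. Cardiomyocyte-like cells followed at 43.3 CPM (41.5 to 45.1). In H2CKO the unnamed cluster led at 89.6 CPM (83.1 to 96.6), then came cardiomyocyte-like cells at 68.6 CPM (66.8 to 70.5), whose interval overlapped that of white-blood-cell-like cells at 66.8 CPM (55.0 to 80.3). Epicardial-like cells had 50.1 CPM (43.4 to 57.6). Which named class led depended on the processing. In the control it was white-blood-cell-like cells after thinning to 5000 UMIs per cell and among cells of the deposited embedding. In H2CKO it was white-blood-cell-like cells after thinning, with strict cells (1500 genes or more, mitochondrial share 5% or less), with cells named by their own markers, with the top 5% of doublet scores removed and with white-blood-cell-like cells limited to few endothelial markers, and epicardial-like cells without doublet removal.

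Adm, the ligand gene, was highest in a pair of clusters. A cardiomyocyte-like cluster with Tbx3, a gene known from the conduction system, was 1 of them. The other was the unnamed cluster, in which the cardiomyocyte list also scored highest (median log2 fold 1.34, against 1.32 in the Tbx3 cluster). The Gal-, Bmp2- and Tbx3-rich cluster of cardiomyocyte-like cells (205 control and 184 H2CKO cells) had 27.0 CPM (22.3 to 32.5) of Adm in the control, and in H2CKO it had 40.3 CPM (33.5 to 48.0). The Rspo3-, Isl1- and Bmp4-rich cluster had 19.1 CPM (16.3 to 22.3) and 20.4 CPM (17.3 to 23.8). The main cardiomyocyte-like cluster, with 1573 and 3402 cells, had 3.00 and 4.65 CPM. Endothelial-like cells had 2.10 CPM (13 UMIs in 6 cells) and 3.28 CPM (31 UMIs in 25 cells), and erythroid-like cells 0.137 and 0.132 CPM. Ramp1 was also highest in the Gal-, Bmp2- and Tbx3-rich cluster, at 84.0 CPM in the control and 170 CPM in H2CKO. Without doublet removal, the named class with the highest Adm level was the epicardial-like one in both libraries.

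**Figure D2:**
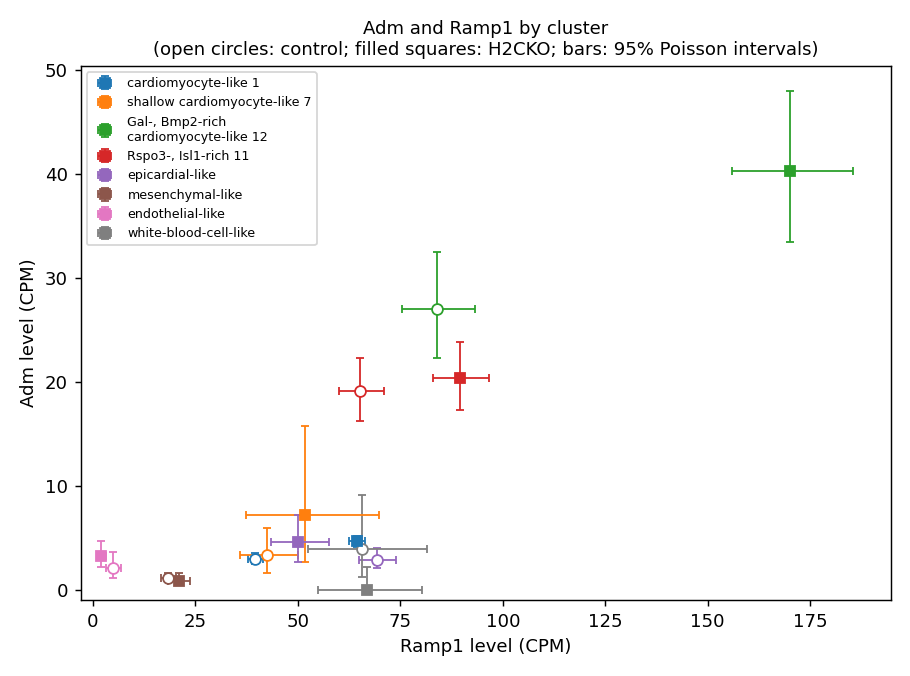
Adm level (vertical axis, CPM) against Ramp1 level (horizontal axis, CPM) in 8 clusters, with open circles for the control, filled squares for H2CKO and bars for 95% Poisson intervals. The Gal- and Bmp2-rich cluster 12 and the Rspo3- and Isl1-rich cluster 11 lie above the others for Adm, while endothelial-like cells lie at the low end of Ramp1.

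Across 9 clusters with at least 50 cells in each library (18 points, which share libraries), the levels of Calcrl and Ramp2 were correlated at Pearson's r = 0.93, Ramp3 with Calcrl at 0.82 and Ramp1 with Adm at 0.66. Ramp1 went the other way from Calcrl (r = −0.46) and from Ramp2 (r = −0.48). These are descriptions over few points that are dominated by 1 or 2 clusters. The genes most like Calcrl among 8631 compared were Notch1 (r = 0.985), Arap3, Eng, Prkd2 and Nfatc1. Those most like Ramp2 were Eng (r = 0.976), Rhoj, Notch1, Ltbp4 and Ptprb. Adm was most like Grhl1 (r = 0.944), Ntm, Rxfp1, Rgs6 and Rora, and Ramp1 most like Hk2, Lpl (r = 0.911), Tpi1, Mrpl33 and Flot1. Ramp3 stayed under 20 CPM in every cluster and was not compared.

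Between genotypes, Calcrl and Ramp2 differed by less than 2-fold in endothelial-like cells. Ramp1 there was 0.415 times the control (0.221 to 0.762), from 30 and 19 UMIs, and under the minimum for comparison. Ratios are of H2CKO to control levels, each with 5 CPM added, on the log2 scale. A gene counted as measured with at least 20 CPM and 20 UMIs in the higher library. Calcrl was lower in H2CKO, with a log2 ratio of −0.83 and 0.552 times the control (exact interval 0.507 to 0.602). Ramp2 had a log2 ratio of −0.20, or 0.870 times (0.844 to 0.897). With strict cells Calcrl had a log2 ratio of −1.04, past 2-fold. As measured over all cells kept, neither of these 2 genes passed, against 8.61% of 6554 measured genes, of which 7.74% were past 2-fold lower and 0.87% higher. Of the measured genes, 14.6% had a lower ratio than Calcrl and 55.8% a lower one than Ramp2.

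The genotype ratio moved with gene length in these libraries, which bears on Calcrl as the longest of the 5 genes. Across 6552 genes measured in endothelial-like cells, ratio and span had Spearman's rho = −0.49, a description over genes, which are not replicates. The median log2 ratio was −0.28 over all measured genes and −0.65 over genes of about Calcrl's span. Calcrl thus lay 0.17 below genes of like span and 0.54 below the median gene on the log2 scale. Ramp2 had a log2 ratio 0.085 above the median gene, 0.088 below genes of like span by the GENCODE model and 0.28 below by its RefSeq span of 1917 bases, which puts it among the shortest genes, so its direction turned with the reference. Thinned to 5000 UMIs per cell, with 22 control and 57 H2CKO shallower cells left out, 55.4% and 37.2% of endothelial-like cells had a Calcrl UMI, so fewer cells with a UMI were also seen at equal depth. The part of the length trend in Calcrl's ratio was not tested beyond this.

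In mesenchymal-like cells Ramp2 had the ratio farthest from 1 of the 3 measured genes. It had 0.634 times the control level (0.599 to 0.671), a log2 ratio of −0.64, where the median of all measured genes was −0.24 and that of genes of like span (by the GENCODE model) was −0.053. The share of cells with a Ramp2 UMI was 86.9% in the control and 63.0% in H2CKO, and 62.4% and 43.5% after thinning, which left out 60 and 57 shallower cells. Calcrl had a log2 ratio of −0.43, or 0.691 times (0.584 to 0.815), and genes of like span had a median of −0.64. Ramp1 was 1.14 times the control, with an interval that includes 1 (0.968 to 1.34). None of these 3 measured genes passed 2-fold, against 4.02% of 6524 genes. Against genes of like span, Calcrl's log2 ratio lay 0.21 above, Ramp1's 0.61 above and Ramp2's 0.59 below, or 0.71 below by its RefSeq span. Ramp1 and Ramp2 thus stood about as far from that reference, on opposite sides.

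In cardiomyocyte-like cells as a class, Ramp1 was the 1 gene of the 5 that was measured, and it was higher in H2CKO. Cardiomyocyte-like cells had 1.59 times the control level (1.51 to 1.67), a log2 ratio of 0.61, and 98.9% of 5490 measured genes had a lower ratio. It did not pass 2-fold, which 0.729% of these genes did. The classes were made up differently: the main cluster held 1573 of 2850 control and 3402 of 3831 H2CKO cells, and a shallow cluster (median 1557 UMIs) held 1072 and 245. Within the main cluster Ramp1 was 39.7 and 64.4 CPM (1.62 times, 1.54 to 1.72), where 0.888% of genes passed 2-fold. In the Gal-, Bmp2- and Tbx3-rich cluster its 84.0 CPM (75.4 to 93.3) in the control stood against 170 CPM (156 to 185), 2.03 times (1.77 to 2.33). The log2 ratio with 5 CPM added was 0.98, just short of 2-fold, which 3.1% of 5909 genes passed there. In the Rspo3-, Isl1- and Bmp4-rich cluster the ratio was 1.37 (1.23 to 1.54), where 1.9% of 5895 genes passed 2-fold and neither Ramp1 nor Adm did. Pth1r, a parathyroid hormone receptor listed here as another receptor that pairs with RAMPs, was 31.6 and 51.0 CPM in cardiomyocyte-like cells, a log2 ratio of 0.61.

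Adm did not pass 2-fold where it was high. The ratio of H2CKO to control was 1.07 (0.852 to 1.34) in the Rspo3-, Isl1- and Bmp4-rich cluster and 1.49 (1.15 to 1.94) in the Gal-, Bmp2- and Tbx3-rich cluster. Elsewhere Adm stayed under the 20 CPM minimum and was not compared.

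Epicardial-like cells showed Ramp1 and Ramp2 in opposite directions, without either passing 2-fold (6.09% of 6343 genes did). Ramp1 was 0.724 times the control (0.617 to 0.845), and its log2 ratio of −0.43 was also the median over genes of like span. Without doublet removal that ratio was 0.25, so its direction turned. Ramp2 was 25.7 CPM (23.1 to 28.6) and 41.2 CPM (35.1 to 48.1), 1.60 times (1.32 to 1.94). In H2CKO, 43 epicardial-like cells had a GFP UMI (13.4%, and 12.9% in the control), and Ramp2 in them was 71.9 CPM (54.2 to 93.6) with 20.9 CPM of the endothelial cadherin Cdh5. In the 279 cells without a GFP UMI, Ramp2 was 33.8 CPM (27.7 to 40.8) and Cdh5 0.316 CPM. The part of those cells in the difference was not tested further.

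In white-blood-cell-like cells (71 and 103), Ramp2 had 23 and 70 UMIs, or 18.0 and 41.7 CPM. Its log2 ratio of 1.02 was the only one past 2-fold in any named class, where 7.71% of 5877 genes passed and 0.97% did so as higher. Of the 70 UMIs, 61 were in 19 cells that held UMIs of at least 3 endothelial markers. In the cells with fewer such markers, 59 and 84 of them, Ramp2 had 7 and 9 UMIs, a log2 ratio of −0.030. Calcrl was 0.544 times (0.290 to 1.00) and Ramp1 1.02 times the control (0.758 to 1.36), and both intervals included 1. In the cells with fewer than 3 endothelial markers, Calcrl had 16 and 6 UMIs, or 16.6 and 4.67 CPM, a log2 ratio of −1.16 that is past 2-fold but under the 20 CPM minimum. No Adm UMI was found in 103 H2CKO cells of this class, which at 3 counts allows a share of up to 2.91% of cells with a UMI. In the 19 H2CKO cells with endothelial markers, Pf4, a listed megakaryocyte gene, was 1632 CPM and in the other 84 it was 395 CPM. The white-blood-cell marker C1qb was 388 and 765 CPM in them. Kinds of blood cells within the class were not separated.

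**Figure D3:**
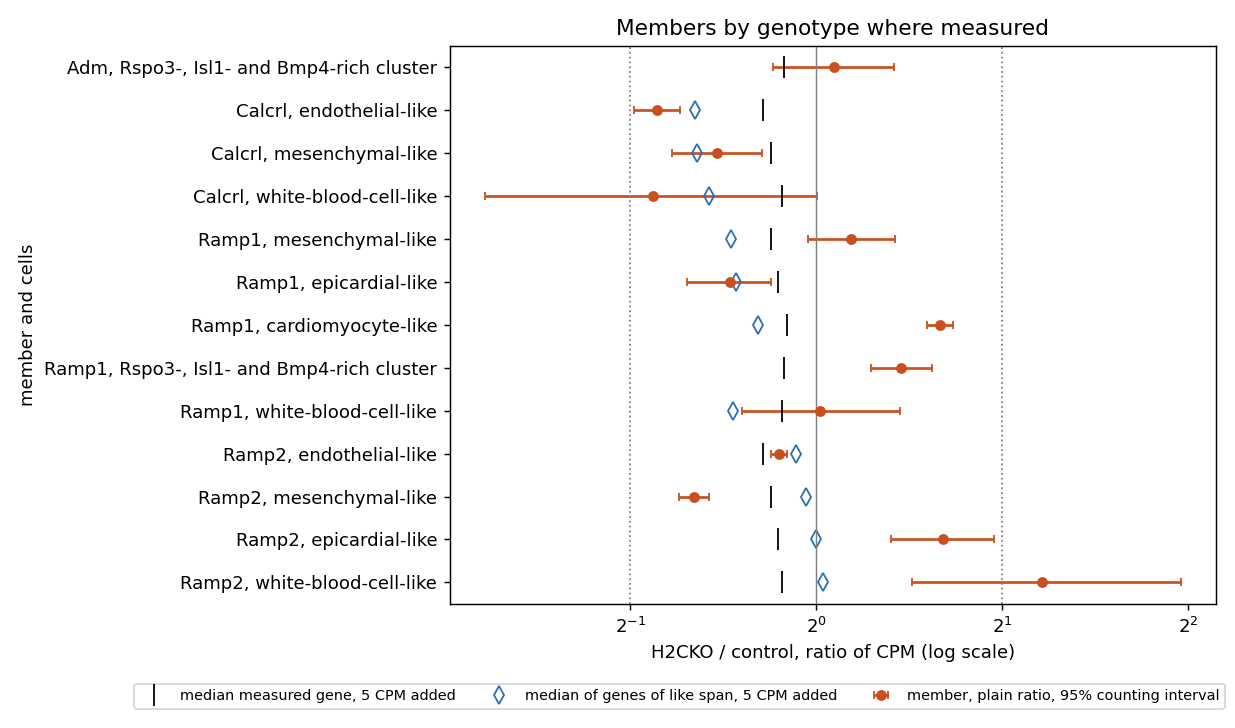
Ratio of H2CKO to control CPM (horizontal axis, log scale) for each gene in each kind of cells where it was measured (vertical axis): orange points with 95% counting intervals, black ticks for the median measured gene of the same cells, open diamonds for the median of genes of like span by the GENCODE model (not computed for the unnamed cluster) and dotted lines at 2-fold. Points are plain ratios, while ticks and diamonds have 5 CPM added to each level, so Calcrl in endothelial-like cells, drawn at 0.552, is 0.564 on the scale of its diamond at 0.637.

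Endothelial-like cells were then divided into 3 subclusters, again without the 5 genes. Subcluster 1 (225 and 267 cells) was led by Stmn2, Wnt4 and Eln. Subcluster 2 (85 and 307 cells) was led by Nr2f2 and Emcn, and subcluster 3 (64 and 173 cells) by Fabp4, Igfbp3, Clec1b and cell-cycle genes. In the control, Calcrl was highest in subcluster 2 at 277 CPM (246 to 311), against 173 CPM (161 to 187) in subcluster 1 and 147 CPM (126 to 170) in subcluster 3. In H2CKO that peak was not seen, with 109 CPM (98.0 to 121) in subcluster 2, 113 CPM (102 to 126) in subcluster 1 and 84.1 CPM (74.1 to 95.1) in subcluster 3. The log2 ratio in subcluster 2 was −1.31, past 2-fold, where 14.1% of 6411 genes passed and 12.4% did so as lower. In subclusters 1 and 3 it was −0.59 and −0.77, and neither Calcrl nor Ramp2 passed 2-fold there, against 4.56% and 9.91% of genes. The number of cells in subcluster 2 differed between libraries, and a difference of makeup within it cannot be told apart from a lower level per cell.

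Ramp2 did not follow Calcrl in this. It was 1274 and 1266 CPM in subcluster 1 (0.994 times, 0.953 to 1.04), 1094 and 979 CPM in subcluster 2 (0.895 times) and 843 and 761 CPM in subcluster 3 (0.904 times). Its order over the subclusters was the same in both libraries. Ramp3 in subcluster 1 had 18 and 33 UMIs, a ratio of CPM of 2.22 with an interval above 1, but its level lies under the 20 CPM minimum, and in the other 2 subclusters the interval of its ratio included 1. Adm in H2CKO was highest in subcluster 3, at 6.29 CPM (3.79 to 9.82).

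The mesenchyme held a division between Calcrl and Ramp1 that was present in both libraries. Its 6 subclusters included 3 rich in Hapln1 (subclusters 1, 4 and 5, the last 2 led by mitosis and histone genes), at 1325 to 1389 CPM in the control. Subclusters 2 and 3 were rich in Meox1, at 312 and 274 CPM against 76.4 to 94.8 CPM in the Hapln1-rich ones. In H2CKO, GFP was 1335 to 1629 CPM in the Hapln1-rich subclusters and 50.8 and 98.8 CPM in the Meox1-rich ones. Calcrl in the control was 35.9, 51.1 and 27.9 CPM in the Hapln1-rich subclusters, against 4.45 CPM (2.68 to 6.95) and 10.7 CPM (8.16 to 13.7) in the others. Ramp1 in the control was 2.96, 2.43 and 4.37 CPM in the Hapln1-rich subclusters and 47.1 CPM (40.8 to 54.0) and 29.0 CPM (24.8 to 33.8) in the others. H2CKO showed the same order. Calcrl was 28.5, 36.0 and 24.9 CPM against 2.42 and 2.35 CPM, and Ramp1 4.55, 2.68 and 4.98 CPM against 46.0 and 47.4 CPM. The subclusters were made from expression in these same cells. The share of all genes that divide them in this way was not computed. The subclusters share a library, so they are not replicates. Summed endothelial markers were 142 to 154 CPM in the Hapln1-rich subclusters of the control and 105 and 111 CPM in the others, and 1 or 2 of the 12 markers were at 0. In H2CKO they were 145 to 173 CPM against 116 and 107 CPM, with 1 to 3 markers at 0. The part of endothelial transcripts in the Calcrl values was not tested.

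Ramp2 was present on both sides of that division. In the control it was 283, 228 and 285 CPM in the Hapln1-rich subclusters and 201 and 155 CPM in the Meox1-rich ones. In H2CKO the values were 170, 134 and 145 CPM and 166 and 132 CPM. The log2 ratio was −0.72, −0.75 and −0.96 in the Hapln1-rich subclusters and −0.27 and −0.22 in the others, and it did not pass 2-fold in any of them. In these 5 subclusters 7.16%, 5.87%, 7.60%, 3.77% and 2.11% of genes passed, in the order 1, 4, 5, 2 and 3. Whether the ratios differ between the 2 kinds of mesenchyme was not tested, as each rests on 1 library per genotype. A sixth subcluster of 24 and 73 cells was led by haemoglobin genes and was left aside.

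**Figure D4:**
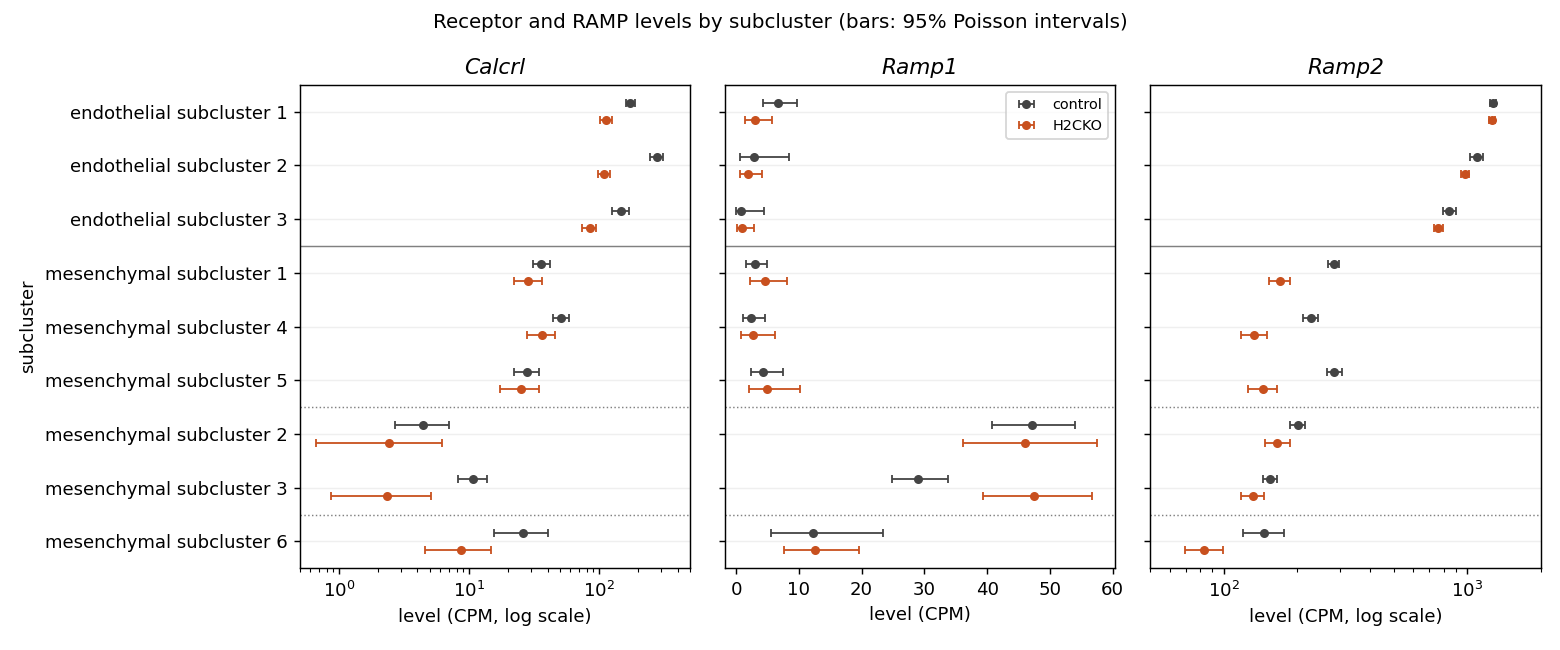
Calcrl, Ramp1 and Ramp2 levels (CPM, horizontal axes, logarithmic for Calcrl and Ramp2) in 3 endothelial and 6 mesenchymal subclusters (vertical axis) for control (grey) and H2CKO (orange), with 95% Poisson intervals. Dotted lines set off the Hapln1-rich mesenchyme (1, 4, 5), with Calcrl at 24.9 to 51.1 CPM, from the Meox1-rich mesenchyme (2, 3), with Ramp1 at 29.0 to 47.4 CPM.

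The H2CKO cells were also divided by whether they had a GFP UMI, which does not separate cells with and without Cre activity cleanly. A GFP UMI was also found in 17.2% of mesenchymal-like and 21.7% of endothelial-like cells of the control, which has no Cre, against 37.8% and 70.4% in H2CKO. In H2CKO it was found in 15.1% of cardiomyocyte-like and 5.25% of erythroid-like cells, whose median cell held 17077 and 13226 UMIs. The set with a GFP UMI can thus hold cells with stray GFP transcripts. Since GFP was high in the Hapln1-rich subclusters and low in the Meox1-rich ones, this division largely repeats that of the subclusters on the same cells and adds no independent support. Among mesenchymal-like cells, Calcrl was 25.5 CPM (110 UMIs) in 407 cells with a GFP UMI and 11.8 CPM (84 UMIs) in 670 without, 2.15 times (1.61 to 2.90). Ramp1 was 8.81 CPM (6.24 to 12.1) and 28.3 CPM (24.6 to 32.5), 3.22-fold lower with GFP (2.26 to 4.68). Ramp2 was 139 and 141 CPM, a ratio of 0.985 (0.889 to 1.09). Median depths were alike at 9452 and 9727 UMIs. Cells without a GFP UMI may include cells whose GFP transcript was not captured.

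Among H2CKO endothelial-like cells, 526 had a GFP UMI and 221 did not. Calcrl was 106 CPM (98.5 to 114) with and 92.4 CPM (80.6 to 106) without, a ratio of 1.15 with an interval of 0.985 to 1.34. Ramp2 was 1043 and 901 CPM, 1.16 times (1.10 to 1.22). Adm had 30 UMIs in 24 of the cells with GFP and 1 UMI in the cells without, or 4.24 CPM (2.86 to 6.06) and 0.422 CPM (0.0107 to 2.35). Calcrl in both sets lay below the control level of 186 CPM. Hand2 was 8.20 and 20.7 CPM in the 2 sets.

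**Figure D5:**
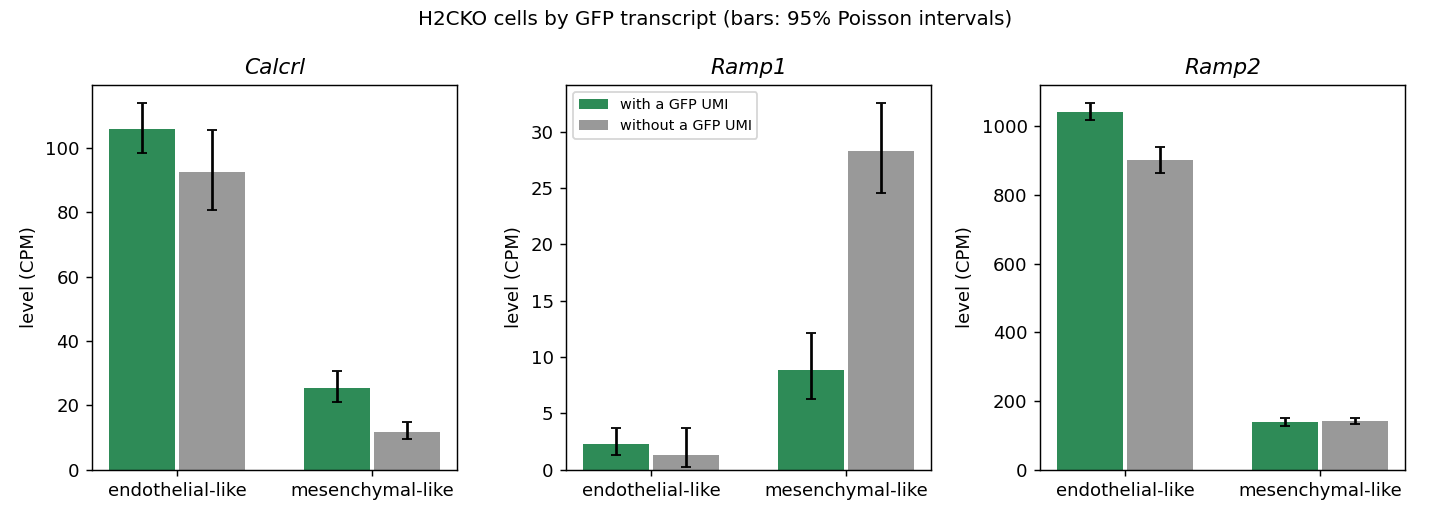
Calcrl, Ramp1 and Ramp2 levels (CPM, vertical axes from 0) in H2CKO endothelial-like and mesenchymal-like cells with (green) and without (grey) a GFP UMI, with 95% Poisson intervals. In mesenchymal-like cells Calcrl is higher with GFP (25.5 against 11.8 CPM), Ramp1 is higher without (28.3 against 8.81 CPM) and Ramp2 is at 139 and 141 CPM.

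Cells with UMIs of both Calcrl and a RAMP gene were counted. Of 300 control endothelial-like cells with a Calcrl UMI, 298 also had a Ramp2 UMI, and of 442 in H2CKO, 441 did. Almost every cell of the class had Ramp2, at 95.9% and 97.4% of those without a Calcrl UMI, so the count there says little about the pairing. In mesenchymal-like cells, Ramp2 was found in 92.3% (88.9 to 94.9, exact binomial interval) of 338 control cells with Calcrl and in 67.7% (59.9 to 74.8) of 161 in H2CKO. The rest of the class had it in 85.4% (83.3 to 87.3) and 62.1% (58.9 to 65.3), and the H2CKO intervals overlap. After thinning, the shares were 73.3% and 48.8% with Calcrl and 61.2% and 43.1% in the rest. Ramp1 was found in 7.40% (4.84 to 10.7) of control mesenchymal-like cells with Calcrl and in 18.6% (16.5 to 20.9) of the rest, and in H2CKO in 6.21% (3.02 to 11.1) and 15.3%. In epicardial-like cells Ramp2 was found in 42.7% (31.3 to 54.6) of 75 control cells with Calcrl and 17.4% (14.7 to 20.2) of the rest. A UMI of both genes in a cell does not show both proteins at its surface.

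Other genes of the peptide's pathway were taken from 5 lists and are given for endothelial-like cells. Of 8 calcitonin-family ligands and other receptors, 3 were measured and none passed 2-fold, where 8.61% of all measured genes did, with a median log2 ratio of 0.15 against −0.28 over all genes. They were Ackr3, a scavenging receptor that also binds adrenomedullin, at 83.3 and 62.7 CPM, Gpr182 at 59.2 and 66.4 CPM, and Crcp, a component of the calcitonin gene-related peptide receptor, at 20.5 and 24.2 CPM. Calca, which encodes calcitonin and calcitonin gene-related peptide, was measured only in subcluster 2. It had 48 UMIs in 15 of 85 control cells there and none in 307 H2CKO cells. That zero, taken as at most 3 counts, allows up to 0.977% of cells with a UMI, which does not limit the cells that express the gene. The other H2CKO endothelial-like cells held 25 Calca UMIs in 3 cells, 20 of them in 1 cell. Ackr3 in subcluster 2 was 163 and 67.2 CPM, a log2 ratio of −1.22. Calca and Ackr3 were thus 2 of 4 measured genes of the list past 2-fold as lower there, where 12.4% of all genes were. Calca was measured there only through its control level. With no H2CKO UMI its ratio had to pass, so its call adds no support. In subcluster 1 Calca went the other way, with 6 UMIs in the control and 25 in H2CKO.

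Genes for maturation and clearance of the peptide were the list with most members past 2-fold. Of 6 genes, 4 were measured and 3 passed as lower in H2CKO, with a list median of −1.32, where 7.74% of all measured genes passed as lower. The members that moved are not specific to adrenomedullin. Ece1, which makes active endothelin, was 318 and 126 CPM (−1.30), with an interval of 0.369 to 0.426 times the control. The proprotein convertases Furin and Pcsk5 were 57.6 and 19.7 CPM (−1.34) and 73.7 and 21.5 CPM (−1.57). Pam, which adds the amide that adrenomedullin needs for activity, was 86.5 and 52.0 CPM (−0.68) and did not pass. In subcluster 1 none of the 4 measured members passed 2-fold (4.56% of genes did), and in subclusters 2 and 3 Ece1, Furin and Pcsk5 did, as lower, against 12.4% and 8.6% of genes there. The low ratios were not particular to endothelial-like cells. The list median was −0.95 in epicardial-like, −0.68 in mesenchymal-like, −0.39 in cardiomyocyte-like and −1.29 in white-blood-cell-like cells. In the Rspo3-, Isl1- and Bmp4-rich cluster it was −0.87. Each lay below the median of all genes of its cells. The length trend was not removed from these ratios.

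Of 21 listed signalling genes downstream of the receptor, 12 were measured in endothelial-like cells and none passed 2-fold, against 8.61% of all measured genes. They had a median log2 ratio of −0.47, and 9 of them lay below the median of all genes. Gnas, the Gs protein itself, was 1693 and 2004 CPM. Rap1b, a small GTPase of the cyclic AMP route, was 327 and 232 CPM, and Prkar1a, a regulatory subunit of protein kinase A, was 288 and 208 CPM. In subcluster 2, 1 of 11 measured members passed as lower, Prkar2a at 52.7 and 20.6 CPM (−1.17), a share near the 12.4% of all genes there.

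Of 14 hypoxia-responsive genes, 9 were measured and 1 passed as lower, near the 7.74% of all measured genes, with a median of −0.12. That gene was Vegfa, at 52.2 and 16.8 CPM (−1.39). The most abundant were Ldha at 523 and 616 CPM, Pgk1 at 264 and 385 CPM and Hif1a at 144 and 71.2 CPM, and these did not pass over the whole class. Hif1a passed as lower in subclusters 2 and 3, with log2 ratios of −1.04 and −1.12, and Vegfa in subcluster 2 (−1.35), where 12.4% and 8.6% of all genes passed as lower. Of 7 other receptors known to pair with RAMPs, none was measured in endothelial-like cells, where the most abundant were Pth1r, Gper1 and Vipr2.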

How the data were processed

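Whole hearts were dissociated and 3′ libraries made on the 10x Genomics platform, per the labels. The authors deposited raw UMI counts per gene and barcode, not normalised, and an embedding score per cell that served here only to mark a subset. Cell Ranger 5.0.1, Seurat 4 and GRCm38.p6 are named in the submitters' processing notes, without roles.

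Cells with under 500 genes or over 10% mitochondrial UMIs were left out. Scrublet (scanpy 1.11.5) marked 1048 control cells and none in H2CKO, where the top 5% of scores (607 cells) were removed. From 2000 variable genes without the 5 members, 30 components and 15 neighbours per library, Leiden clustering (leidenalg 0.10.2, resolution 1, subclusters 0.5) gave clusters named from 13 marker lists. UMIs were summed per class and library into CPM, and a ratio used CPM plus 5. A gene is past 2-fold when its log2 ratio reaches 1 either way. Intervals are 95% Poisson, exact binomial and exact conditional (scipy 1.17.1). The ratio code was tested on simulated data. Thinning to 5000 UMIs left out shallower cells.

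Named genes are the 5 members, the 5 genes most like each, and from each pathway list those past 2-fold in endothelial cells and the 3 most abundant. The members and lists were chosen with earlier results of these data known. Depth was 195825720 UMIs over 14114 control barcodes and 201477256 over 13885 in H2CKO.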

Additional observations from a re-analysis of the deposited data

Results flagged for a closer look

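Ramp1 differed between genotypes in opposite directions in different cells, with both counting intervals away from 1. Its log2 ratio was 0.61 in cardiomyocyte-like and 0.43 in the Rspo3-, Isl1- and Bmp4-rich cluster, against −0.43 in epicardial-like cells, differences of 1.04 and 0.86. Ramp2 did so as well. Its log2 ratio was 0.59 in epicardial-like cells, against −0.20 in endothelial-like and −0.64 in mesenchymal-like cells, differences of 0.79 and 1.23. In white-blood-cell-like cells it was 1.02, which differs from the same 2 classes by 1.22 and 1.66. None of these differences was tested, because each class has 1 library per genotype. The Ramp1 value in epicardial-like cells was also the median of genes of like span there (−0.43), and it turned to 0.25 without doublet removal. The Ramp2 value in endothelial-like cells turned to 0.085 when centred on the median gene, that in epicardial-like cells was 0.090 with cells named by their own markers, and the Ramp2 value in white-blood-cell-like cells turned to −0.030 in cells with fewer than 3 endothelial markers.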

How the results depend on the processing

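No paired analysis was possible because each genotype has 1 library. All endothelial-like cells fell in 1 cluster, so joining endothelial clusters gave no further value. Removal of the gene length trend, the shallow cluster or white-blood-cell-like cells with endothelial markers, the RefSeq span of Ramp2, and all alternatives for receptor pairs and GFP, were chosen after seeing the data. Values without the length trend are the ratio minus the median of genes of like span plus the median of all measured genes, so they are not differences from genes of like span. The cause of each shift below was not tested.

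For Calcrl in endothelial-like cells the log2 ratio (−0.83) was −0.54 when centred, −1.04 (past 2-fold) with strict cells (at least 1500 genes, at most 5% mitochondrial UMIs) and −0.46 without the length trend. For Ramp2 (−0.20) it was −0.12 thinned, 0.085 centred, −0.10 with strict cells, −0.092 with embedded cells, −0.15 without doublet removal, −0.11 with the top 5% of doublet scores removed in both libraries, −0.27 with own-marker naming and −0.37 without the length trend. In mesenchymal-like cells, centring gave −0.19 for Calcrl (−0.43), 0.39 for Ramp1 (0.15) and −0.40 for Ramp2 (−0.64), and removal of the length trend gave −0.030 for Calcrl and −0.83 for Ramp2. Ramp1 in cardiomyocyte-like cells (0.61) was 0.77 centred, 0.38 with strict cells, 0.69 without doublet removal, 0.52 at resolution 0.5 and 0.76 without the length trend, higher in H2CKO under all 12 alternatives. In epicardial-like cells, Ramp1 (−0.43) was 0.25 without doublet removal and Ramp2 (0.59) was 0.090 with own-marker naming. Ramp2 in white-blood-cell-like cells (1.02) was 0.12 thinned, 1.79 with own-marker naming and −0.030 in cells with fewer than 3 endothelial markers.

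In endothelial-like cells 57 genes passed 2-fold as higher, or 128 centred, 100 with strict cells, 103 with embedded cells and 24 at a minimum of 100 CPM. As lower 507 passed, or 163 centred, 782 at a pseudocount of 1 CPM and 174 at 100 CPM. In the other classes these counts ranged from 8 to 61 (higher) and 12 to 141 (lower) in cardiomyocyte-like, 16 to 59 and 51 to 448 in mesenchymal-like, 30 to 117 and 90 to 528 in epicardial-like, and 13 to 147 and 67 to 606 in white-blood-cell-like cells. Without doublet removal, 3 of 5 genes kept their top named class in H2CKO.

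The share of mesenchymal-like cells with Calcrl that had Ramp2 was 73.3% in the control and 48.8% in H2CKO after thinning. In endothelial-like cells it was 100% in both libraries with strict and with embedded cells. The GFP log2 ratios are of plain CPM, without 5 CPM added, so the 2-fold rule above does not apply to them. By GFP, Ramp2 in mesenchymal-like cells (−0.02) was 0.20 thinned. Under all 7 alternatives Calcrl lay between 1.07 and 1.16 and Ramp1 between −1.80 and −1.38. The share of all genes that differ as much by GFP was not computed. Adm outside 2 clusters, and Ramp3 everywhere, lay under the chosen minimum of 20 CPM and rest on few UMIs.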
